A study of Mus musculus with 18 samples.

Results

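Hox paralogue groups 5 and 6 of the mouse comprise 6 genes, Hoxa5, Hoxb5 and Hoxc5 of group 5 and Hoxa6, Hoxb6 and Hoxc6 of group 6, which were taken by symbol and Ensembl identifier and make up 6 of the 39 Hox genes and 6 of the 53465 genes in the deposited table. In control embryos every member differed between the anterior and the posterior piece of the body axis, but not in the same direction. Hoxb5 and Hoxc5 were lower posteriorly, Hoxa5 and Hoxb6 were moderately higher, and Hoxa6 and Hoxc6 were about 5-fold higher. In embryos with Meis1 and Meis2 conditionally deleted, no member passed the test against controls in either region. Since 0.0394% of all tested genes passed it anteriorly and 0.0126% posteriorly, this count is that of the background and says nothing particular of the members. In the posterior piece the groups of Hoxc5 did not overlap, as was so for 4.29% of all genes.

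Hox genes encode homeodomain transcription factors, lie in 4 clusters, and are ordered in each cluster as they are expressed along the body, with genes at the 3′ end of the cluster active earlier and further forward. Genes at the same place in different clusters are paralogues and share much of their function. Hox proteins bind DNA together with TALE homeodomain proteins of the Pbx and Meis families. Group 5 genes pattern the lower neck and upper thorax, and group 6 genes act around the change from neck to rib-bearing vertebrae, where the front limit of Hoxc6 expression lies in many vertebrates. The Hoxd cluster of the mouse has no gene of either group.

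The 18 RNA-seq libraries come from 9 mouse embryos at embryonic day 9, with 20 to 24 somites. Controls numbered 5 embryos, and 4 embryos, called DKO in the labels, were mutant for Meis1 and Meis2 through conditional deletion with Delta1Cre. Delta1 (Dll1) is a Notch ligand of the presomitic mesoderm. The alleles of the controls and the strain were not given in the sources used here, and cells in which this Cre is not active retain both genes. The posterior piece held the axial bud and the newest somites, the anterior piece held the remaining axis with somites, and the aim stated for the series was to find Meis targets in skeletal patterning. Poly(A) RNA was used, and each embryo gave an anterior and a posterior library, so that each region has 5 control and 4 DKO libraries. Embryo numbers below are names only, and the same number in both regions is the same embryo as far as genotype, sex label and somite number show.

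In GRCm38, Hoxa5 (ENSMUSG00000038253) occupies positions 52201754 to 52204587 of chromosome 6, minus strand, and Hoxa6 (ENSMUSG00000043219) positions 52206288 to 52208722 of the same strand. Hoxb6 (ENSMUSG00000000690) spans 96292476 to 96301569 and Hoxb5 (ENSMUSG00000038700) 96303336 to 96306121 on the plus strand of chromosome 11. Hoxc6 (ENSMUSG00000001661) spans 102998257 to 103011881 and Hoxc5 (ENSMUSG00000022485) 102967443 to 103017429 on the plus strand of chromosome 15. The long span of Hoxc5 comes from a transcript that starts inside Hoxc10 and runs across Hoxc9, Hoxc8 and Hoxc6. Of the annotated exon bases of Hoxc5, 166 bp (5.37%) are shared with Hoxc10 on the same strand. For Hoxb5, 100 bp (3.59%) lie opposite exons of the antisense gene Hoxb5os, and the use of strand in counting is not given in the sources used here. Hoxa5 and Hoxa6 lie within introns of long Hoxa3 transcripts and opposite the antisense gene Hoxaas3 but share no exon bases with them.

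RefSeq promoter sequences (GRCm38.p6) were matched for 2 of the 6 members, the adjacent genes Hoxa5 and Hoxa6 of the same strand, and these are shown for that reason. Each window covers the 200 bases before the annotated transcript start, 5′ to 3′ on the minus strand, at chr6:52204588-52204787 for Hoxa5 and chr6:52208723-52208922 for Hoxa6, and capitals mark TAAT or its reverse ATTA, the core letters that many homeodomains recognise.
Hoxa5: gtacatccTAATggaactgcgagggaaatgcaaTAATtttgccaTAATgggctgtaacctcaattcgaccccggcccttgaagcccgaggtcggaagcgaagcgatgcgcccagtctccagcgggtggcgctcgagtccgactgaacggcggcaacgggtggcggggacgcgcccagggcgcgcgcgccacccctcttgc
Hoxa6: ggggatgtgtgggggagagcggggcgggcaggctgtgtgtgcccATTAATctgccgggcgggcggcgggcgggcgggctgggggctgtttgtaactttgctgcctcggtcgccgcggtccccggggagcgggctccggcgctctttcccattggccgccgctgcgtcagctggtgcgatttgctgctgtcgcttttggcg
The core letters occur at 3 places upstream of Hoxa5 and at 2 overlapping places upstream of Hoxa6, and 47% of 32851 promoter windows of this length hold them on either strand. GC content was 63.5% in the Hoxa5 window and 71% in the Hoxa6 window. The letters TGACAG (a Meis core, in 12.9% of windows), AGGTCA (a core of retinoic acid response elements, 11.4%), TGATNNAT (a Hox-Pbx core, 5.85%) and TTTATG (a Cdx core, 8.51%), searched on both strands, have no match in either window. These are letter matches in a short window and not binding sites.

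Library totals ranged from 12.7 M to 38.2 M expected counts (M, megacounts), so 3 counts, used as the floor, equalled 0.079 to 0.233 counts per megacount (CPM), the unit of expression used throughout. All members lay above that floor in all 18 libraries, the lowest being Hoxa6 in the anterior pieces, where single libraries held as few as 17 counts. Control embryo 1 carries a female label. Its libraries held Xist at 0.34 and 0.211 CPM and summed Y-linked genes at 151 and 162 CPM, the pattern of the libraries labelled male. The regional comparison of controls, both genotype comparisons and the anterior fit of somite number are therefore also given without that embryo. The interaction is so given for Hoxc5 only. The labelled regions were checked against marker genes. The summed level of 4 axial bud markers (T, Nkx1-2, Cdx2, Fgf8) was 203 to 390 CPM in posterior controls and 10.5 to 18.8 CPM in anterior controls, and the sum of 8 neural tube markers was 248 to 336 and 453 to 585 CPM. Meis1 and Meis2 transcripts were still present in the DKO libraries. The anterior mean of Meis2 was 190 ± 10 CPM (SD) over 5 controls and 143 ± 11.3 CPM over 4 DKO libraries (log2 fold change −0.41, adjusted p = 0.0522), and the posterior means were 143 ± 16.7 and 99.4 ± 11.3 CPM (−0.52, adjusted p = 0.196). Gene-level counts do not show whether reads cover the deleted exons.

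The first comparison asked how the members are distributed along the axis of control embryos. Of the 6 members, 4 were higher and 2 lower in the posterior piece at an adjusted p below 0.05, where 25.4% of all 15294 tested genes were called, 12.1% higher and 13.3% lower. The median log2 fold change of the members was 0.47, and that of all genes −0.01. In 5 of 6 members the 5 posterior and the 5 anterior libraries did not overlap, which held for 20.1% of tested genes. These are bulk tissue pieces, in which fewer cells of a type and less RNA per cell cannot be told apart.

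**Figure D1:**
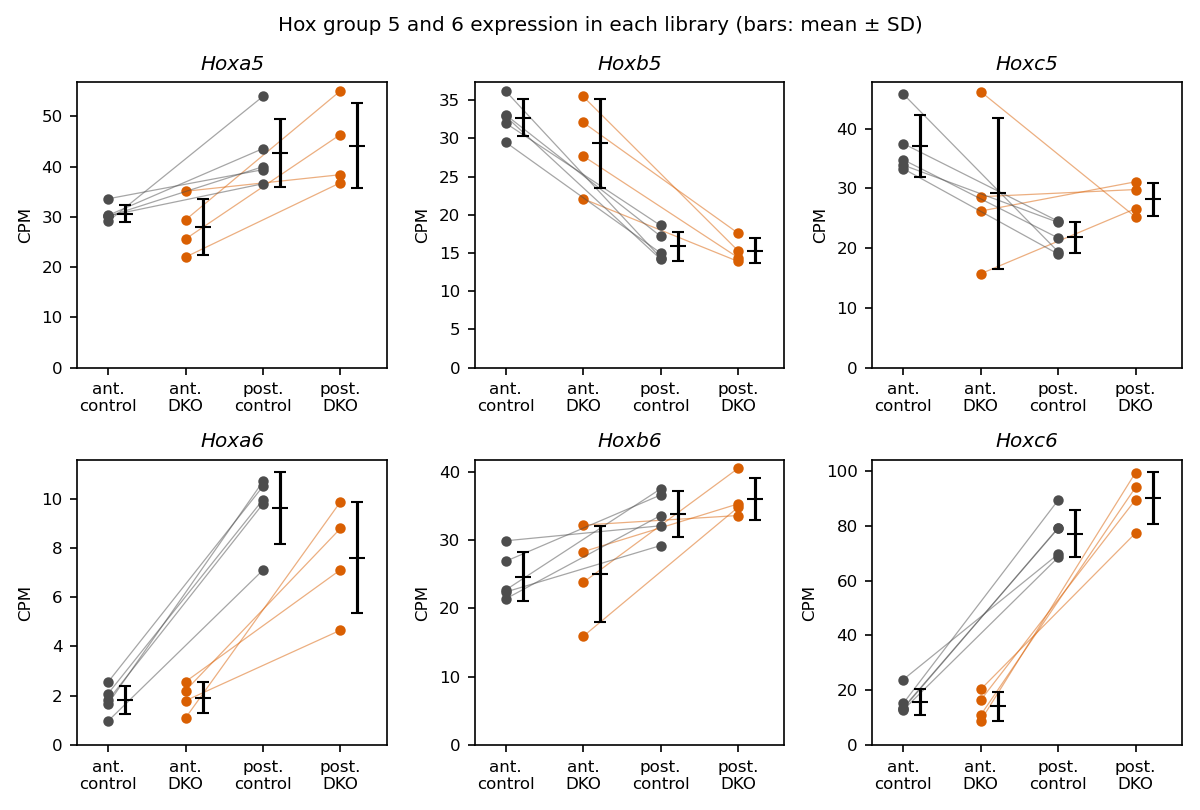
Expression of the 6 members in each library, in CPM on linear axes from 0; each point is a library, thin lines join the anterior and posterior library of an embryo, grey is control, orange is DKO, and bars give mean ± SD. Lines rise for Hoxa6 and Hoxc6 in all 9 embryos and fall for Hoxb5 in all 9, while the DKO lines of Hoxc5 run in both directions.

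Within group 5, Hoxa5, a gene required for normal lower neck vertebrae and for lung development, was at 30.2, 30.3, 33.6, 30.1 and 29.1 CPM in anterior controls 1 to 5 and at 36.6, 43.6, 39.4, 40.0 and 54.0 CPM in posterior controls 1 to 5. Every posterior library lay above every anterior library. The means were 30.7 ± 1.74 and 42.7 ± 6.76 CPM (SD, n = 5 each), or 0.48 on the log2 scale (SE 0.0939, adjusted p = 0.00233). Hoxb5, which acts with its paralogues in placing the shoulder girdle, went the other way. It was at 36.2, 29.5, 32.9, 33.1 and 32.0 CPM anteriorly and at 14.4, 15, 14.2, 17.2 and 18.6 CPM posteriorly. The posterior values were all below 20 CPM and the anterior values all above 29 CPM, and the fitted difference was a 2.07-fold decrease (log2 fold change −1.05, SE 0.0881, adjusted p = 2.98e-06). The antisense gene Hoxb5os stood at 62.6 ± 13.2 CPM in posterior and 13.5 ± 2.17 CPM in anterior controls (SD, n = 5 each), the opposite order. How far its reads enter the Hoxb5 count was not tested.

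Hoxc5, the third gene of the group, was at 37.5, 33.9, 45.8, 33.3 and 34.8 CPM in anterior controls 1 to 5 and at 24.5, 24.3, 19.4, 19.0 and 21.7 CPM in posterior controls 1 to 5. All posterior controls were again below all anterior ones. Hoxc5 was 1.7-fold lower posteriorly (log2 fold change −0.76, SE 0.104, adjusted p = 0.000155). Hoxc10, which shares exon bases with it, was at no more than 0.173 CPM in any anterior library and at 120 to 153 CPM in posterior controls. How many reads of the shared bases were counted for Hoxc5 was not tested. The 95% intervals of the log2 fold changes were 0.27 to 0.68 for Hoxa5, −1.24 to −0.86 for Hoxb5 and −0.99 to −0.54 for Hoxc5, so that the interval of Hoxa5 lay apart from those of both paralogues.

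All genes of group 6 were higher posteriorly. Hoxc6 was at 13.6, 15.2, 23.9, 13.3 and 12.8 CPM in anterior controls 1 to 5 and at 79.1, 89.4, 69.7, 79.3 and 68.5 CPM in posterior controls 1 to 5. The groups were far apart, with anterior control 3 the highest of its group and the posterior piece of the same embryo among the lower of its own. The rise was 4.94-fold (log2 fold change 2.30, SE 0.153, adjusted p = 4.76e-07). Hoxa6, which has a role in rib and vertebral patterning together with its paralogues, was at 2.09, 1.82, 2.56, 0.976 and 1.68 CPM anteriorly and at 9.96, 9.79, 10.5, 7.10 and 10.7 CPM posteriorly. It had the widest ratio of the 6 members, 5.29-fold (log2 fold change 2.40, SE 0.213, adjusted p = 4.44e-06), and its interval of 1.94 to 2.87 held the value of Hoxc6.

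Hoxb6, expressed in lateral plate as well as paraxial mesoderm, had a difference of about the size of that of Hoxa5. It was at 26.9, 21.4, 29.9, 22.4 and 22.7 CPM in anterior controls 1 to 5 and at 36.6, 33.6, 32.1, 29.2 and 37.5 CPM in posterior controls 1 to 5. Here the groups overlapped, since posterior control 4 lay below anterior control 3, yet the posterior library was the higher in 5 of 5 embryos. The log2 fold change was 0.46 (SE 0.102, adjusted p = 0.00505), with a 95% interval of 0.24 to 0.68. Its interval did not reach those of Hoxa6 (from 1.94) and Hoxc6 (1.97 to 2.64).

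Without control embryo 1, all 6 members were still called. The log2 fold changes were then 0.52 for Hoxa5, −0.97 for Hoxb5, −0.80 for Hoxc5, 2.45 for Hoxa6, 0.46 for Hoxb6 and 2.25 for Hoxc6, with the highest adjusted p, 0.0219, for Hoxb6. Several markers moved with region in the same fit. All 8 neural tube markers and all 5 tested dermomyotome and myotome markers were lower posteriorly, and the 4 presomitic, 4 axial bud and 4 intermediate mesoderm markers were higher. Of these, 3 presomitic and 1 axial bud marker did not pass the filter on low counts in the anterior libraries alone. They could be called higher posteriorly only. Lbx1, a dermomyotome and myotome marker, did not pass that filter in the posterior libraries alone and could be called lower posteriorly only. Of 8 lateral plate and limb bud markers, 4 were higher and 1 lower. In that list Tbx4 did not pass the filter in the anterior libraries alone, nor Tbx5 in the posterior ones, so that the direction of both was set by the filter. No marker of these lists was at 0 throughout a group, and the share of the members' differences that goes with tissue makeup was not tested.

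The nearest neighbours of the members showed the following signs in each cluster. In the Hoxa cluster Hoxa4 was lower posteriorly (log2 fold change −1.19), Hoxa5 and Hoxa6 were higher, and Hoxa7 was higher at 2.05. In the Hoxb cluster Hoxb4 (−0.96) and Hoxb5 were both lower, and Hoxb6 and Hoxb7 (1.56) were higher. In the Hoxc cluster Hoxc4 was higher posteriorly (0.50, adjusted p = 0.0056), Hoxc5 was lower, and Hoxc6 and Hoxc8 (2.80) were higher. Among all tested Hox genes of the other groups, 3 of 12 in groups 1 to 4 were higher and 4 lower, 5 of 5 in groups 7 and 8 were higher, and 13 of 13 tested genes in groups 9 to 13 were higher. Most genes of groups 9 to 13 entered this test only through their posterior level, since 4 of 16 passed the filter on low counts in the anterior libraries alone and 15 of 16 in the posterior ones, so their direction was set by the filter and their count supports nothing.

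**Figure D2:**
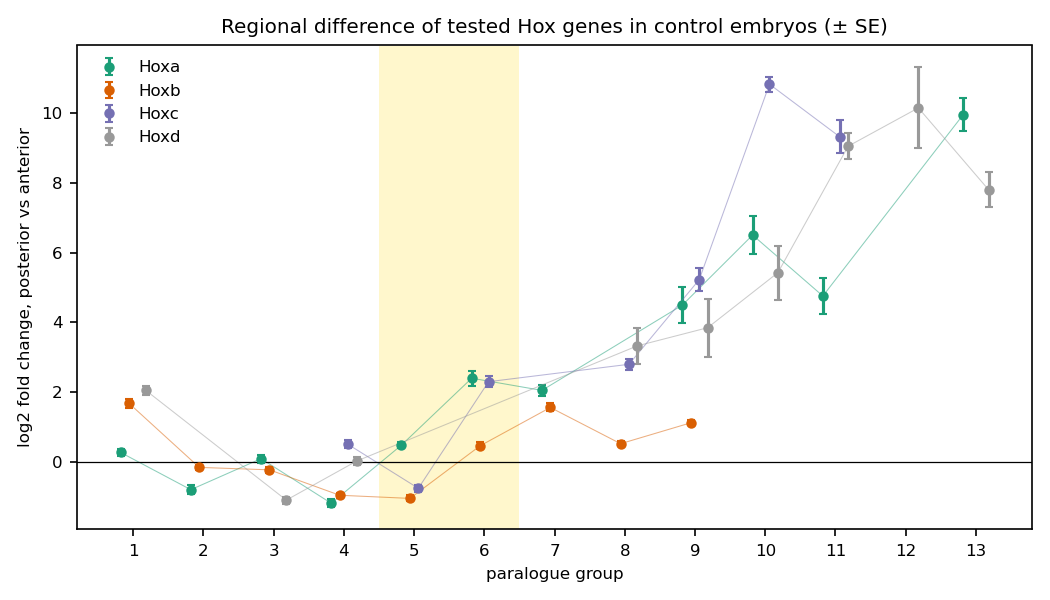
Log2 fold change between posterior and anterior pieces of control embryos, ± SE, for every tested Hox gene, by paralogue group on the horizontal axis and coloured by cluster, with groups 5 and 6 shaded. Points of group 5 lie on both sides of 0, from −1.05 (Hoxb5) to 0.48 (Hoxa5), and points of group 6 lie above 0, from 0.46 (Hoxb6) to 2.40 (Hoxa6).

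Levels of different members were compared per length, as CPM per kilobase of annotated exon. In anterior controls the order was Hoxa5 (16.3 ± 0.926 CPM per kilobase, SD, n = 5), Hoxb6 (12.6 ± 1.84), Hoxc5 (12.0 ± 1.67), Hoxb5 (11.8 ± 0.862), Hoxc6 (6.54 ± 1.92) and Hoxa6 (2.09 ± 0.667). Hoxb6, Hoxc5 and Hoxb5 overlapped one another there, and the other steps of that order separated the libraries. In posterior controls Hoxc6 was first at 32.1 ± 3.53 CPM per kilobase (n = 5), ahead of Hoxa5 (22.8 ± 3.6), Hoxb6 (17.2 ± 1.73), Hoxa6 (11 ± 1.67), Hoxc5 (7.05 ± 0.844) and Hoxb5 (5.7 ± 0.691). Hoxc6 and Hoxa5 overlapped at the top, as did Hoxc5 and Hoxb5 at the bottom. The place of Hoxc6 depended on the length used. With the longest transcript in place of all exon bases its mean was 48.8 CPM per kilobase in posterior controls, where it no longer overlapped Hoxa5, and 9.96 in anterior controls, where it then overlapped Hoxb5. Hoxb6 and Hoxc5 also changed places in the anterior order. By either length, the mean of Hoxa6 stood last in anterior controls but ahead of Hoxc5 and Hoxb5 in posterior controls. Its posterior control libraries did not overlap those of Hoxc5 by all exon bases, and did so by the longest transcript.

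In DKO libraries the first and the last places in each region were those of the controls, but more neighbours overlapped. Anteriorly the order was Hoxa5 (14.9 ± 2.98 CPM per kilobase, SD, n = 4), Hoxb6 (12.8 ± 3.58), Hoxb5 (10.5 ± 2.08), Hoxc5 (9.45 ± 4.1), Hoxc6 (5.86 ± 2.16) and Hoxa6 (2.2 ± 0.724), and only the last step separated the libraries. Posteriorly it was Hoxc6 (37.4 ± 3.91, n = 4), Hoxa5 (23.5 ± 4.49), Hoxb6 (18.4 ± 1.55), Hoxc5 (9.12 ± 0.887), Hoxa6 (8.7 ± 2.6) and Hoxb5 (5.49 ± 0.58). Posterior Hoxc5 and Hoxa6 stood in the opposite order in controls and DKO, and in DKO they overlapped.

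**Figure D3:**
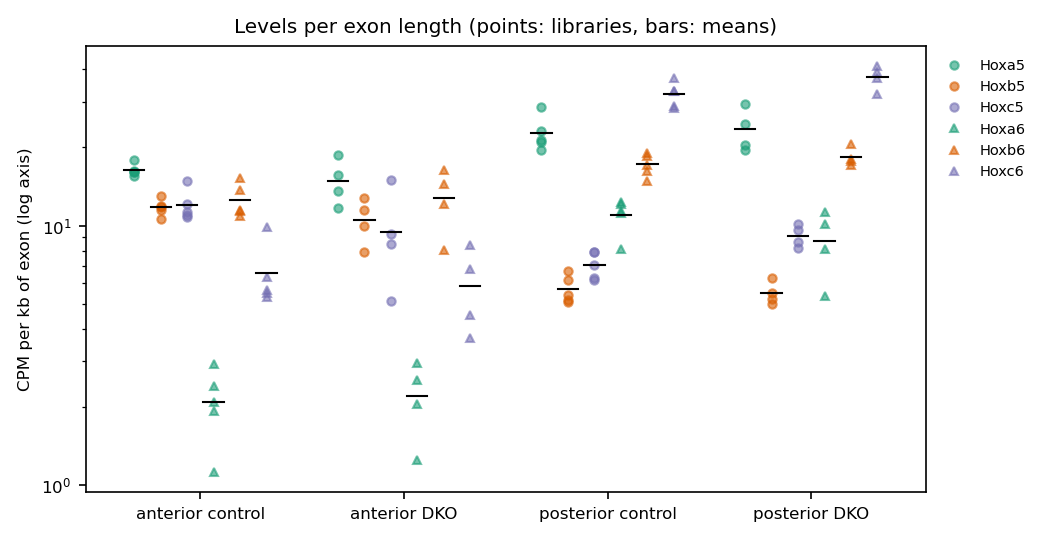
CPM per kilobase of annotated exon (log axis) for the 6 members in the 4 groups; points are libraries, bars are means, circles are group 5 and triangles group 6. Hoxa6 (green triangles) is lowest in both anterior groups and Hoxc6 (purple triangles) has the highest mean in both posterior groups.

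Summed over the 6 members, the level was 61.3 ± 6.87 CPM per kilobase (SD, n = 5) in anterior controls and 95.8 ± 6.23 (n = 5) in posterior controls, with 55.7 ± 14.7 and 103 ± 7.12 in the DKO groups (n = 4 each). Group 5 genes made up 65.7 ± 2.61% of this sum in anterior controls and 62.9 ± 3.75% in anterior DKO libraries. In the posterior pieces their part was 37 ± 2.78% in controls and 37.1 ± 3.88% in DKO. The ranges of controls and DKO overlapped in each region, at 61.4 to 68.2% and 57.6 to 65.6% anteriorly and 34.2 to 41.5% and 32.1 to 41.3% posteriorly. Hoxc6 alone made up 10.5 ± 1.9% of the anterior and 33.5 ± 3.68% of the posterior control sum.

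The same regional comparison in the 4 DKO embryos gave 4 of 6 members past the threshold, 3 higher and 1 lower, where 18.5% of 15777 genes were called (8.76% higher and 9.7% lower). With the embryo as a block 5 of 6 passed (19% of genes), as with DESeq2 (21.5% of genes). The posterior rise of Hoxc6 was from 16.4, 20.3, 8.88 and 10.9 CPM in anterior DKO libraries 1 to 4 to 89.6, 77.4, 99.5 and 94.1 CPM in posterior ones (log2 fold change 2.67, SE 0.219, adjusted p = 2.41e-05). Hoxa6 rose from 2.57, 2.21, 1.10 and 1.80 CPM to 7.11, 8.79, 9.87 and 4.66 CPM (1.97, SE 0.29, adjusted p = 0.00093). Hoxb5 fell from 27.7, 35.5, 22.1 and 32.1 CPM to 14.4, 15.3, 13.9 and 17.6 CPM (−0.94, SE 0.146, adjusted p = 0.00131). For these 3 genes no anterior library reached the range of the posterior ones.

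Hoxa5 was at 25.6, 35.1, 22.0 and 29.4 CPM in anterior DKO libraries 1 to 4 and at 46.4, 38.4, 36.8 and 55.1 CPM in posterior ones, again without overlap. Its log2 fold change was 0.66 (SE 0.161, adjusted p = 0.0164), and this call rested on single embryos, with 0.59 (adjusted p = 0.126) without DKO embryo 1 and 0.55 (adjusted p = 0.0607) without DKO embryo 4. Hoxb6 was at 28.3, 32.2, 15.9 and 23.8 CPM anteriorly and 35.3, 33.6, 34.8 and 40.5 CPM posteriorly. Every posterior value of Hoxb6 exceeded the anterior ones, but its log2 fold change of 0.52 (SE 0.179) had an adjusted p of 0.0726. With the embryo as a block it was 0.56 (adjusted p = 0.0406), and without DKO embryo 2 it was 0.70 (adjusted p = 0.0466).

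Hoxc5 was the only member with overlapping regions in DKO. It was at 28.6, 46.2, 15.7 and 26.2 CPM in anterior DKO libraries 1 to 4 and at 29.8, 25.2, 26.6 and 31.1 CPM in posterior ones. The anterior values spread widely around nearly level posterior values. Its log2 fold change was −0.05 (SE 0.254, 95% interval −0.62 to 0.52, adjusted p = 0.932), and it was 0.31 without DKO embryo 2. The other 5 of 6 members had no overlap between regions in DKO, which held for 23.5% of tested genes.

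Differences within embryos, posterior minus anterior on the log2 CPM scale, show the same members embryo by embryo. Hoxc5 had −0.61, −0.48, −1.24, −0.81 and −0.68 in control embryos 1 to 5, all below 0. In DKO embryos 1 to 4 it had 0.06, −0.87, 0.75 and 0.25, so that only DKO embryo 2 was lower posteriorly. Hoxc6 ranged from 1.54 to 2.57 in controls and from 1.93 to 3.47 in DKO. Hoxa6 ranged from 2 to 2.76 in controls and, more widely, from 1.33 to 3.07 in DKO. Hoxa5 was higher posteriorly in 5 of 5 control and 4 of 4 DKO embryos (0.13 to 0.91 over all 9), Hoxb6 likewise (0.06 to 1.13), and Hoxb5 was lower in all 9 (−1.32 to −0.67).

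The next comparison asked whether members depend on Meis1 and Meis2 in the anterior piece. No member passed the threshold (0 of 6, where 0.0394% of 15238 genes were called), 0 of 6 had an unadjusted p below 0.05 (13% of genes), and DESeq2 also called 0 of 6 (1.94% of genes). In 0 of 6 members did DKO and control libraries separate, against 5.07% of genes. Hoxc5 had the lowest fitted value, −0.34 (SE 0.235, 95% interval −0.86 to 0.17, adjusted p = 0.583), with means of 37.1 ± 5.16 CPM in controls (SD, n = 5) and 29.2 ± 12.7 CPM in DKO (n = 4). Without DKO embryo 2 it was −0.64, and without DKO embryo 3 it was −0.14. Hoxb5 was at −0.16 (interval −0.42 to 0.11), Hoxc6 at −0.15 (−0.70 to 0.40), Hoxa5 at −0.13 (−0.38 to 0.12), Hoxa6 at 0.09 (−0.56 to 0.75) and Hoxb6 at 0.03 (−0.36 to 0.42). The intervals leave room for changes of either sign, and for Hoxc5, Hoxa6 and Hoxc6 for log2 changes beyond 0.5.

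The SD of the anterior DKO libraries exceeded that of the controls in 6 of 6 members, as it did in 41.3% of all tested genes. It was 5.6 against 1.74 CPM for Hoxa5 and 12.7 against 5.16 CPM for Hoxc5, but nearly equal for Hoxa6 (0.633 against 0.583 CPM) and Hoxc6 (5.19 against 4.62 CPM). DKO embryo 3, with 20 somites, was the lowest DKO library in 6 of 6 members and the lowest of all 9 anterior libraries in 5 of 6. DKO embryo 2, with 24 somites, was the highest DKO library in 5 of 6, and control embryo 3, also with 24 somites, the highest control in 5 of 6. The difference in spread was not tested. Without control embryo 1 the anterior log2 fold changes ran from −0.34 (Hoxc5) to 0.15 (Hoxa6), with 0 of 6 called.

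In the posterior piece, again 0 of 6 members passed the threshold (0.0126% of 15936 genes called, 2 genes), 2 of 6 had an unadjusted p below 0.05 (11% of genes), and DESeq2 called 0 of 6 (1.01% of genes). Hoxc5 had the clearest difference. Its posterior libraries lay between 19.0 and 24.5 CPM in controls and between 25.2 and 31.1 CPM in DKO, the single member without overlap (4.29% of genes), with means of 21.8 ± 2.61 (SD, n = 5) and 28.2 ± 2.74 CPM (n = 4). The log2 fold change was 0.37 (SE 0.108, 95% interval 0.13 to 0.61, unadjusted p = 0.00553, adjusted p = 0.351), and over leave-one-out fits it ran from 0.31 to 0.42. Posterior Hoxc10 was at 133 ± 14.5 CPM in controls (n = 5) and 160 ± 26 CPM in DKO (n = 4), and the part of its shared exon in the Hoxc5 value was not tested.

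The posterior mean of Hoxc6 was 77.2 ± 8.5 CPM over 5 controls and 90.1 ± 9.42 CPM over 4 DKO libraries (SD), with a log2 fold change of 0.22 (interval 0.02 to 0.43, adjusted p = 0.449). DKO libraries 1, 3 and 4 lay above every control, and DKO library 2 among the controls. Hoxa6 averaged 9.62 ± 1.46 and 7.61 ± 2.27 CPM (−0.34, interval −0.78 to 0.10, adjusted p = 0.519). Control 4 was the low library among controls and DKO 4 the lowest of all 9. The remaining members differed little in the fit, Hoxb6 at 0.09 (−0.11 to 0.30), Hoxa5 at 0.05 (−0.25 to 0.36) and Hoxb5 at −0.05 (−0.30 to 0.20). Without control embryo 1 the values ran from −0.32 (Hoxa6) to 0.41 (Hoxc5), and 0 of 6 were called.

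Marker levels in the same groups stand beside these values. In the anterior piece the summed neural tube markers were at 598 to 656 CPM in DKO and 453 to 585 CPM in controls, with no overlap, and of the 4 presomitic markers only Dll1 was high enough to test (log2 fold change 0.42, adjusted p = 0.0881). The 5 sclerotome markers were at 102 to 123 CPM in anterior DKO and 134 to 167 CPM in anterior controls, and the 8 lateral plate and limb bud markers at 49.6 to 70.6 and 72.5 to 152 CPM. In the posterior piece the 4 intermediate mesoderm markers were at 25 to 39.2 CPM in DKO and 44 to 66.3 CPM in controls. The 5 surface ectoderm markers were at 209 to 273 CPM in DKO and 141 to 207 CPM in controls. Of these 5, Krt8 (log2 fold change 0.63) and Krt18 (0.48) had the largest values, with Trp63 at 0.12, Tfap2a at 0.08 and Grhl3 at −0.06. The sum of 5 primitive erythroid markers overlapped between genotypes, at 775 to 1230 CPM in DKO and 599 to 2860 CPM in controls anteriorly and 1040 to 2140 and 852 to 1310 CPM posteriorly, and its genes had a median interaction of 1.07, 4 of 5 with an unadjusted p below 0.05. Posterior neural tube markers also overlapped, at 294 to 380 CPM in DKO and 248 to 336 CPM in controls, with all 8 genes at a positive fold change (median 0.31). None of these markers was at 0 throughout a group or passed the threshold in its region, and their part in the members' values was not tested.

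Whether the genotype difference itself depended on region was tested as an interaction over all 18 libraries. No member was called (0 of 6), nor was any of 16428 genes (0%) by edgeR, and 3.45% of genes and 1 member had an unadjusted p below 0.05; DESeq2 called 10 genes (0.0609%) and 0 members. That member was Hoxc5, with a difference of 0.71 on the log2 scale (SE 0.279, interval 0.13 to 1.30, unadjusted p = 0.0199, adjusted p = 0.999). With the embryo as a block it was 0.78 (adjusted p = 0.851), and without control embryo 1 it was 0.75. With each embryo left out it ran from 0.53 (DKO embryo 3) to 1.07 (DKO embryo 2), and that of Hoxc6 from 0.14 (control embryo 3) to 0.65 (DKO embryo 2). The other members had −0.44 (Hoxa6), 0.37 (Hoxc6), 0.18 (Hoxa5), 0.10 (Hoxb5) and 0.07 (Hoxb6), all with adjusted p = 0.999. Hoxc5 passed the regional test in controls and not in DKO, and the interaction test did not show that these effects differ.

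**Figure D4:**
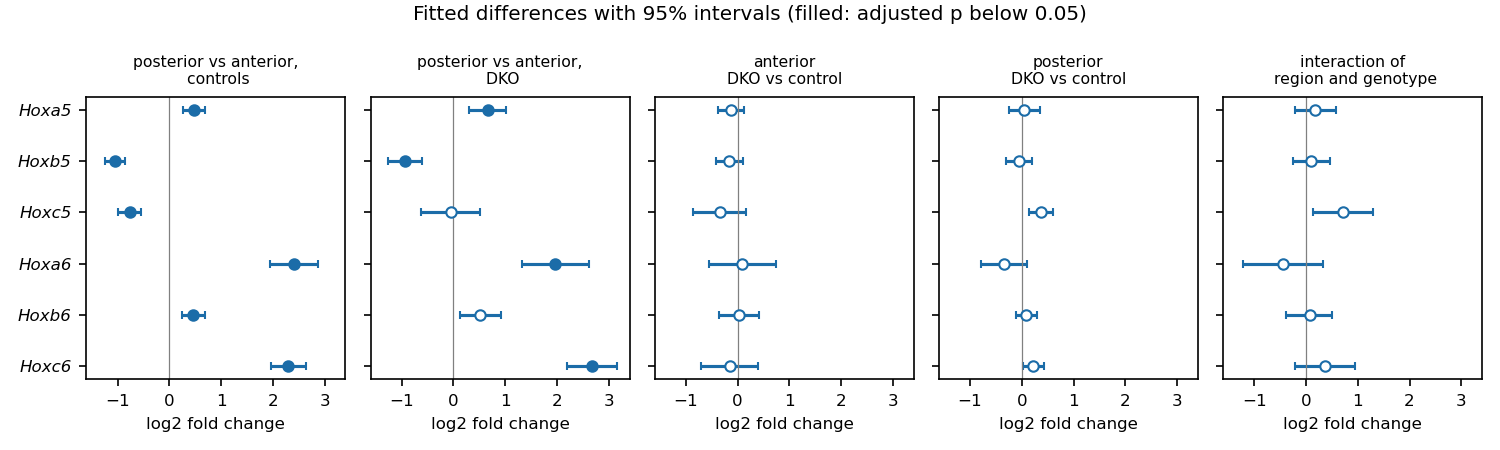
Log2 fold changes of the 6 members with 95% intervals in 5 comparisons; filled points have an adjusted p below 0.05. Filled points occur in the regional comparisons (6 in controls, 4 in DKO) and in neither genotype comparison nor the interaction, where Hoxc5 has the widest displacement, 0.71.

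Because the embryos spanned 20 to 24 somites, the change per somite was fitted with genotype in the model. In the anterior libraries all 6 members had positive slopes, 5 of 6 with an unadjusted p below 0.05, where 12.9% of 15238 genes had one (6.95% with a positive slope). By edgeR 0 of 6 passed the adjusted threshold (0.0328% of genes). The slopes, in log2 units per somite, were 0.20 for Hoxc5 (SE 0.054, adjusted p = 0.17), 0.18 for Hoxa6 (0.0918, 0.462), 0.16 for Hoxb6 (0.0406, 0.161), 0.16 for Hoxc6 (0.0698, 0.373), 0.10 for Hoxb5 (0.0288, 0.189) and 0.08 for Hoxa5 (0.0301, 0.281). DESeq2 called Hoxc5 (adjusted p = 0.00735) and Hoxb6 (adjusted p = 0.0126), 2 of 6, against 2.31% of genes. Their median slope was 0.16 and that of all genes 0.00. The ends of the range are held by few embryos, with 20 somites in control 2 and DKO 3 and 24 somites in control 3 and DKO 2. Without control embryo 1 the slopes ran from 0.09 to 0.21, with 0 of 6 called. They depended more on the embryos with 20 and 24 somites. Without DKO embryo 3 they were 0.13 for Hoxc5, 0.11 for Hoxa6, 0.10 for Hoxb6, 0.11 for Hoxc6, 0.06 for Hoxb5 and 0.05 for Hoxa5, and without DKO embryo 2 Hoxa5 was also at 0.05. Without control embryo 2 they were 0.27 for Hoxc5, 0.29 for Hoxa6 and 0.24 for Hoxc6, and all slopes stayed positive with any embryo left out. Neighbouring Hox genes had such slopes too, positive in 10 of 12 genes of groups 1 to 4 and 5 of 5 of groups 7 and 8, with an unadjusted p below 0.05 in 4 and 3 of these. Markers of other cell types had fitted slopes of both signs in the same libraries. The motor neuron and limb bud marker Isl1 had a slope of 0.31 (adjusted p = 0.0723), the limb bud marker Prrx1 0.17 (adjusted p = 0.17), and the muscle lineage genes Pax7 and Myog 0.17 (adjusted p = 0.129) and 0.15 (adjusted p = 0.218). All 5 erythroid markers had positive and all 6 gut endoderm markers negative slopes, 1 and 2 of them with an unadjusted p below 0.05. No marker passed the adjusted threshold, and their part in the members' slopes was not tested.

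In the posterior libraries the slopes were near 0, from −0.08 to 0.02, with 0 of 6 called (0.0126% of genes by edgeR, 0.885% by DESeq2, which also called 0 of 6). Hoxc6 had the slope farthest from 0, −0.08 per somite (SE 0.0226, unadjusted p = 0.00581, adjusted p = 0.43), and was the single member with an unadjusted p below 0.05 (6.42% of genes). Within genotypes, posterior Hoxc6 was at 89.4, 79.3, 79.1, 68.5 and 69.7 CPM in controls with 20, 21, 23, 23 and 24 somites, and at 99.5, 89.6, 94.1 and 77.4 CPM in DKO with 20, 22, 23 and 24 somites. Anterior Hoxc6 was at 15.2, 13.3, 13.6, 12.8 and 23.9 CPM in controls with 20, 21, 23, 23 and 24 somites, and at 8.88, 16.4, 10.9 and 20.3 CPM in DKO with 20, 22, 23 and 24 somites. The embryo of 24 somites was highest in each genotype, and the values below it followed no order of somite number. Without control embryo 3 the anterior slope of Hoxc6 was 0.11 (SE 0.0766). The difference between the slopes of the regions was not tested. In the posterior libraries all 4 axial bud and all 4 presomitic markers had negative slopes, 3 in each list with an unadjusted p below 0.05, among them Cdx2 and Nkx1-2 (both −0.21), T (−0.16) and Msgn1 (−0.22). All 8 neural tube, 5 sclerotome and 4 tested dermomyotome and myotome markers had positive slopes, 4 in each list with such a p. None passed the adjusted threshold, and their part in the slope of Hoxc6 was not tested.

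**Figure D5:**
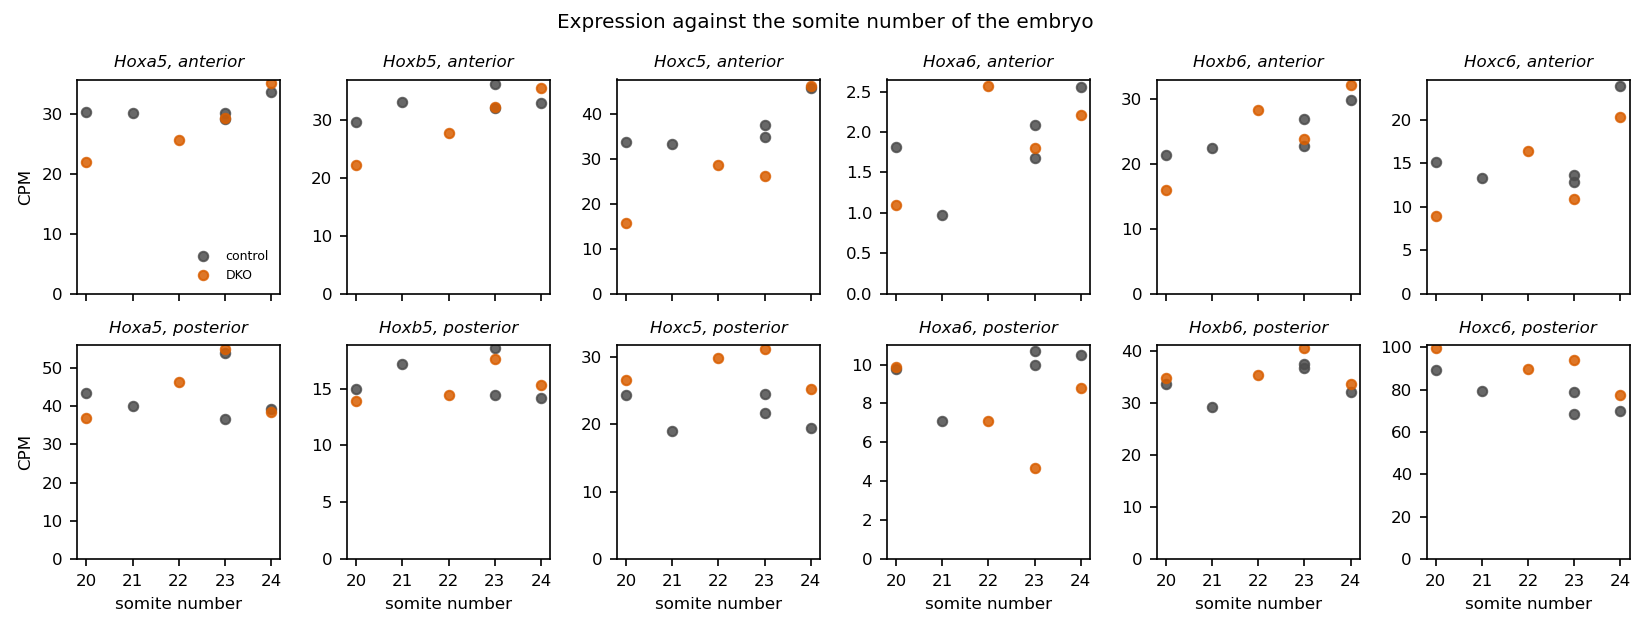
CPM of each member against the somite number of the embryo (20 to 24), anterior libraries above and posterior libraries below; grey points are controls and orange points DKO. Anterior values are highest at 24 somites for Hoxa5, Hoxc5, Hoxb6 and Hoxc6. For posterior Hoxc6, the lowest control has 23 somites and the lowest DKO embryo 24, while the DKO embryo of 23 somites lies above every control.

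The members were also set beside all genes by Pearson correlation of log2 CPM over the 18 libraries, among 11812 protein-coding genes that did not include the members. These points share region, genotype and embryo, and the correlations are descriptions. Hoxc6 was most like Hoxa9 (0.991), Hoxa7 (0.99) and Hoxc8 (0.988), Hoxb6 like Hoxb8 (0.916) and Hoxc4 (0.906), and Hoxa5 like Hoxb7 (0.884). Hoxa6 was nearest to Snph (0.968), Hoxb5 to Lbx1 (0.968), a marker of migrating muscle precursors, and Hoxc5 to Enho (0.835). After each group's mean was subtracted, the genes outside the members nearest to Hoxc5 were Hoxc4 (0.897) and Hoxb8 (0.86), Hoxa5 was nearest to Hoxa4 (0.871), and Hoxc6 again to Hoxa9 (0.869). The nearest gene was no Hox gene for the other three, with Mbd6 for Hoxa6 (0.844), Kcnmb4 for Hoxb6 (0.841) and Khdrbs3 for Hoxb5 (0.838). Among the members themselves this residual correlation was highest for Hoxc5 with Hoxb6 (0.917) and Hoxc6 (0.828) and for Hoxa5 with Hoxb5 (0.794), and lowest for Hoxa5 with Hoxa6 (0.0336).

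Genes known to act upstream of Hox genes or with their products were read from fixed lists in the same regional comparison of controls. For comparison, 12.1% of all tested genes were called higher and 13.3% lower. Of 12 axial signals and regulators, 11 were higher posteriorly, but 4 of the 12 (Cdx2, Cdx4, Fgf4 and Fgf17) did not pass the filter on low counts in the anterior libraries alone, so that their direction was set by their posterior level. The higher genes included the Cdx genes Cdx4 (log2 fold change 9.57) and Cdx2 (7.75), which activate central Hox genes, the growth factor Fgf17 (8.24) and the mesoderm regulator T (4.51). Of 13 genes of the retinoic acid pathway 2 were higher, the retinoic acid degrading enzyme Cyp26a1 (3.68) and the receptor Rarg (1.87), and 5 lower, including the binding protein Crabp1 (−2.17) and the degrading enzyme Cyp26b1 (−2.09). Of 7 TALE partners, 4 were lower, with Pbx3 at −0.92, and 1 was higher, Pknox2 at 0.24, and both Meis1 (−0.57, adjusted p = 0.00226) and Meis2 (−0.41, adjusted p = 0.00156) were lower. Of 18 Polycomb and trithorax genes, which keep Hox clusters silent or active, 3 were lower (Bmi1 at −0.51, Phc2 at −0.19 and Ezh2 at −0.18) and none higher, a share of calls near or below that of all genes.

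Between genotypes, no gene of these lists passed the threshold in either region. Anteriorly, an unadjusted p below 0.05 was found for 4 of 13 genes of the retinoic acid pathway, 4 of 8 tested axial signals and regulators, 5 of 18 Polycomb and trithorax genes and 2 of 7 TALE partners, where 13% of all genes had such a p. Posteriorly these counts were 3 of 13, 0 of 12, 3 of 18 and 1 of 7, against 11% of all genes. The anterior genes of the retinoic acid pathway were Aldh1a2, the enzyme that makes retinoic acid in the somites, at −0.97 (adjusted p = 0.0641), Cyp26b1 at −1.03 (adjusted p = 0.0659), Rdh10 at −0.26 and Crabp1 at 0.27. Those of the axial signals were the ligand Wnt5a at −0.63 (adjusted p = 0.0641), and Wnt8a at 0.90, Cdx1 at 0.35 and Wnt3a at 0.25, so that neither list had a single direction. Among other Hox genes, 1 of 12 in groups 1 to 4, 0 of 5 in groups 7 and 8 and 0 of 4 tested in groups 9 to 13 had such a p anteriorly, and 3 of 12, 0 of 5 and 3 of 15 posteriorly.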

How the data were processed

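RNA-seq was analysed from 18 libraries of 9 embryos. The authors deposited a table of RSEM expected counts per Ensembl gene, not scaled between libraries, in which values can be fractional. Per the submitters' processing notes, CASAVA, cutadapt and RSEM were used with GRCm38; versions, the aligner and the use of strand are not given in the sources used here. Gene models of GENCODE (GRCm38) matched 53360 of 53465 identifiers and all 6 members. Rounded counts were fitted with edgeR 4.0.16 (R 4.3.3): filterByExpr (minimum count 10, minimum total 15), TMM scaling, glmQLFit and glmQLFTest, and Benjamini-Hochberg adjustment over all genes tested, with a threshold of 0.05. The submitters' own test is not given in the labels. The SE is the size of the log2 fold change divided by the square root of F, and intervals are 95%. Levels are TMM-scaled CPM over 18 libraries (prior count 2 for log2 CPM). Somite number was a covariate beside genotype.

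Embryos were joined across regions by genotype, sex label and somite number. After subtraction of group means over 16428 genes, libraries of the same embryo correlated at 0.256 to 0.57 in 9 of 9 pairs, and those of different embryos of the same genotype at −0.283 to 0.0916, so the embryo was used as a block in alternatives. Other alternatives were RLE and upper quartile scaling, DESeq2 1.42.0, limma-voom (limma 3.58.1), testing all genes, testing only genes with a mean of 50 counts or more, sex label or somite number as covariates, all libraries in a single fit, each embryo left out, and the longest transcript as length. All 6 members were named in every comparison; for likeness, the genes with the highest correlation were named among those with a mean of at least 50 counts. The members, gene lists and tests were chosen with earlier results of these data known. The fitting code was tested on simulated counts. Reads carry no molecular identifiers, so the floor of 3 counts covers counting error only. Litter, dissection day and sequencing batch are not given in the sources used here and were not examined.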

Additional observations from a re-analysis of the deposited data

Results flagged for a closer look

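In 3 of the 24 combinations of member and group, a library lay far from the others by Dixon's criterion at 95%, which chance alone gives in about 1 of 20 groups. Hoxa5 in anterior control 3 was at 33.6 CPM, with the other anterior controls at 29.1 to 30.3 CPM. Hoxc6 in the same library was at 23.9 CPM, with the others at 12.8 to 15.2 CPM. Anterior control 3 has the lowest total of all libraries, 12.7 M expected counts, and comes from a control embryo with 24 somites. Hoxa6 in posterior control 4 was at 7.10 CPM, with the others at 9.79 to 10.7 CPM. Without control embryo 3 the regional log2 fold change of Hoxc6 in controls was 2.52, and without control embryo 4 that of Hoxa6 was 2.34. The part of depth and stage in these values was not tested.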

How the results depend on the processing

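Of 634 values of single members under the alternatives, 599 kept their direction and their side of the threshold, 27 changed sign, 6 came to pass the threshold and 2 no longer did. Of 10 called results, 1 was lost under any alternative, Hoxa5 in DKO (0.55 to 0.85 with each embryo left out). No reversed value exceeded 0.31 in size, and none was of a called result. With each embryo left out, the anterior DKO values ran from −0.09 to 0.27 for Hoxa6, from −0.11 to 0.19 for Hoxb6 and from −0.37 to 0.04 for Hoxc6, and the posterior ones from −0.08 to 0.15 for Hoxa5 and from −0.13 to 0.01 for Hoxb5. The interaction of Hoxb6 ran from −0.08 to 0.24, and the regional value of Hoxc5 in DKO from −0.22 to 0.31. Posterior slopes ran from −0.02 to 0.06 for Hoxa5, −0.01 to 0.04 for Hoxb5, −0.04 to 0.01 for Hoxc5 and −0.04 to 0.09 for Hoxa6, the last also 0.02 under limma-voom. Anterior Hoxb6 was at −0.00 with sex label and −0.01 with somite number as covariate. The sex label was used as given, female for control embryo 1. With the embryo as a block, regional Hoxc5 in DKO was 0.03, as under limma-voom, Hoxb6 came to pass the threshold (0.56), and the block changed no other member's call. For anterior somite number, DESeq2 called 2 members and edgeR 0. By the longest transcript, Hoxc6 was at 9.96, 8.92, 48.8 and 57 CPM per kilobase in anterior control, anterior DKO, posterior control and posterior DKO. The cause of these shifts was not tested, except that the last follows from the shorter length. Members called in DKO between regions numbered 3 to 5 with each embryo left out. Hoxa6 had as few as 17 counts in an anterior library, which limits its precision.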
